A study of Mus musculus with 6 samples.

Results

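The cytosolic sensors of RNA and DNA were followed through 10 genes, chosen by name: the RIG-I-like helicases Ddx58 (RIG-I), Ifih1 (MDA5) and Dhx58 (LGP2), their adaptor Mavs, the kinases Tbk1 and Ikbke, the double-stranded RNA binders Eif2ak2 (PKR) and Adar, the Z-nucleic acid sensor Zbp1, and the DNA branch adaptor Tmem173 (STING). All 10 were among the 52550 genes in the files, and all 10 passed the filter on low values. The values come from messenger RNA sequencing of plasmacytoid dendritic cells (pDCs), from the spleen of C57BL/6 mice. In 1 group of 3 libraries the cells were stimulated with R837 (imiquimod), an imidazoquinoline that activates the endosomal receptor TLR7. In the other group of 3 libraries they received R837 together with taurine, an amino sulfonic acid. Both groups were treated for 12 h. No library of unstimulated cells was analysed here. The comparison is therefore of taurine added to R837, in cells that had all been stimulated through TLR7. The labels give neither the doses nor whether the replicates came from separate mice or cultures, so p-values speak only to the spread among these libraries, which may be technical.

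RIG-I and MDA5 bind viral RNA in the cytosol, RIG-I short ends with a 5′ triphosphate and MDA5 long double-stranded RNA. Both then engage MAVS on the mitochondrial surface, which activates TBK1 and IKK epsilon and, through them, IRF3 and IRF7. LGP2 binds RNA but lacks the signalling domains and tunes the other helicases. DNA in the cytosol is read by cGAS, whose cyclic dinucleotide product binds STING, which also recruits TBK1. PKR halts translation when it meets double-stranded RNA, ADAR1 edits such RNA so that it is not sensed, and ZBP1 binds Z-form nucleic acid and engages RIPK3. Many of these genes are themselves induced by type I interferon. pDCs are known above all for sensing through TLR7 and TLR9 in endosomes, so the cytosolic route is usually described as the lesser one in this cell type.

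The start regions of the sensors were searched for the letters through which interferon-activated factors are known to bind. RefSeq promoters (build GRCm38.p6, 250 bases before to 50 after the transcript start) were found for 7 of the 10 genes. None was available for Dhx58, Zbp1 or Tmem173, so whether these genes hold the motifs is not known here. Dhx58 and Zbp1 were called higher with taurine, as given below. The core of the interferon-stimulated response element, GAAA and GAAA with 2 bases of any kind between them, was searched on both strands. It was present for 3 of these 7 genes, in each case after the start, within the transcribed part. The 30 bases around each match in Ifih1, Ddx58 and Eif2ak2 are shown, and whether these letters regulate the genes was not tested. All are written 5′ to 3′ on the gene's own strand, which is the minus strand for all 3, with the match in capitals. For Ddx58 the match is on the other strand, so it reads TTTC, 2 bases and TTTC.
Ifih1, chr2:62646206-62646235: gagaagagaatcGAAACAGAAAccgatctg
Ddx58, chr4:40239804-40239833: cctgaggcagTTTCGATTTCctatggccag
Eif2ak2, chr17:78882535-78882564: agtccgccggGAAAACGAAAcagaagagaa
Counted from the transcript start, the matches lie at bases 33 to 42 in Ifih1, 3 to 12 in Ddx58 and 19 to 28 in Eif2ak2. Counted by gene, the motif was present in 3.99% of the 27025 genes with a RefSeq promoter of this length. Counted by promoter, it was in 3 of the 9 of the members and in 3.44% of all 32851. The kB motif, GGGA and TTCC with 2 bases of any kind between them, was in none of the members' promoters and in 1.47% of all, so the motifs did not overlap in any member. A match describes letters and not a bound site. Ddx58 and Ifih1 were called higher with taurine and Eif2ak2 was not, as given below with their values.

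The files hold a normalized count per gene, which becomes whole reads once multiplied by the size factor of its library. The libraries held 33585080 to 38392654 reads on genes. The members were well covered, with 77723 to 99144 reads on the 10 genes together in a library. The labelled cell type was checked against 15 pDC markers, led by Ly6d and Irf8 and all passing the filter, which summed to a CPM (share of a library's reads on genes, scaled as usual) of 11326 to 12204 with R837 alone and of 11459 to 11779 with taurine. That sum is carried by its highest genes, and single markers differed: limma called 4 of the 15 lower with taurine (26.7%) and 2 higher (13.3%). Over all tested genes it called 2.66% lower and 3.75% higher. The pDC transcription factors Runx2 (log2 change -0.60, limma adjusted p = 0.00415) and Tcf4 (-0.51, limma adjusted p = 0.0137) were lower, as were Pacsin1 (-0.38) and Klk1 (-0.35), while Cox6a2 (0.55) and the interferon-inducible Bst2 (0.38) were higher. These 6 were chosen for naming after their values were seen. The call of Runx2 was kept whichever single library was left out, and the other 5 calls were lost without R837 replicate 2, taurine replicate 2 or taurine replicate 3, and all but that of Bst2 without taurine replicate 1 as well. Pacsin1, Klk1, Cox6a2 and Bst2 also lost theirs without R837 replicate 1. The part of these differences in the results on the sensors was not tested. Along the main axis of variation, R837 replicate 3 (score -12.8) stood between the other R837 libraries (-43.8 and -47.6) and the taurine libraries (29.6 to 43.5), so calls are also given without it. The test was limma on log2(normalized count + 1) over 15265 genes, with Benjamini-Hochberg adjustment and a threshold of 0.05. Log2 changes are of taurine plus R837 over R837 alone, and their intervals are 95% intervals.

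With taurine, 4 of the 10 sensor genes rose: Ddx58, Ifih1, Dhx58 and Zbp1. The fold of group means was 1.29 for Ddx58, 1.27 for Dhx58, 1.25 for Ifih1 and 1.23 for Zbp1. Over all tested genes limma called 3.75% higher and 2.66% lower (6.41% in either direction). No member was called lower by limma, and at an unadjusted p under 0.05 only the same 4 members passed, where 23.7% of all tested genes did. edgeR called 3 members higher and 0 lower, against 3.74% and 2.48% of all genes, and DESeq2 called 4 higher and 0 lower, against 8.38% and 8.14% of the genes it adjusted. The change was above 0 for 8 of the 10 members, against 48.6% of all tested genes. The median change of the members was 0.18 on the log2 scale and that of all tested genes was -0.01. Because the samples are bulk RNA, fewer cells of a type and less RNA per cell cannot be told apart for any of these differences. All 4 calls depend on single libraries: they were kept without R837 replicate 3 and lost without R837 replicate 1 or 2 or taurine replicate 1, 2 or 3. In the fits that lost them no member was called by limma, although 4 or 5 stayed at an unadjusted p under 0.05. So did 2701 to 3187 of the 14922 to 14988 genes tested in those fits. Calls over all tested genes fell in those fits too, from 979 to between 130 and 340, with 0.669% to 1.52% called higher. Without R837 replicate 3 they rose to 1503, with 5.23% called higher.

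**Figure D1:**
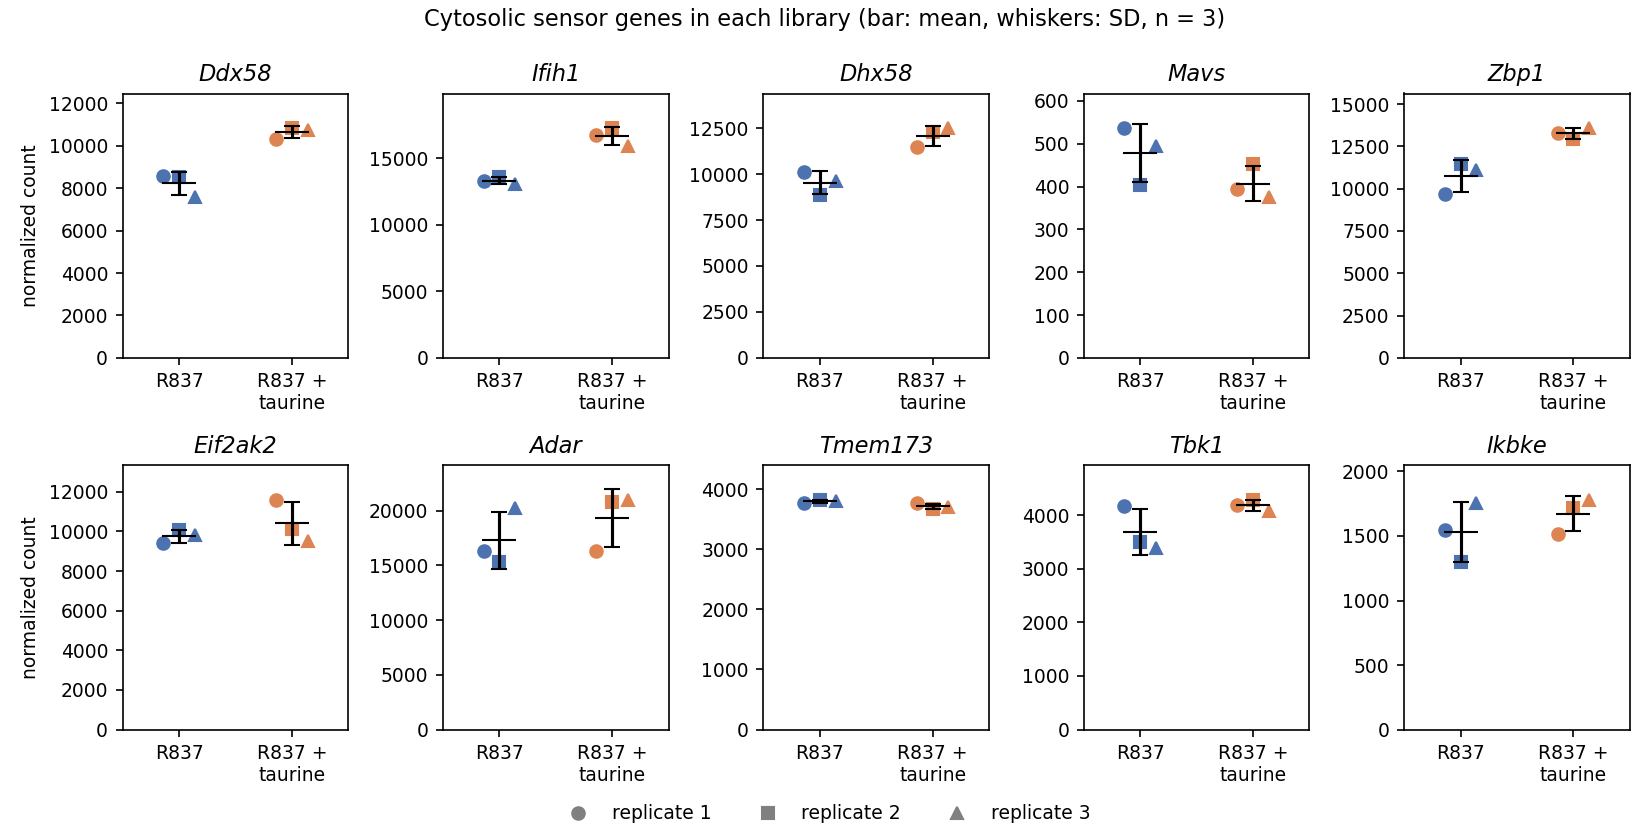
Normalized count of each of the 10 sensor genes in each library, on a linear axis from 0, with R837 alone and R837 plus taurine side by side; point shapes are replicates, and horizontal bars and whiskers are the group mean and its SD (n = 3). The taurine libraries all lie above the R837 libraries for Ddx58, Ifih1, Dhx58 and Zbp1, and all below them for Tmem173 by a small margin.

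Ddx58 (ENSMUSG00000040296.15, chr4:40203773-40239828, minus strand, mm10) encodes RIG-I, the helicase that recognises 5′ triphosphate RNA. Its normalized counts were 8580, 8519 and 7591 in R837 replicates 1 to 3 and 10308, 10837 and 10763 in taurine replicates 1 to 3. Every taurine library was above every R837 library, and R837 replicate 3 was the lowest. The mean went from 8230.0 ± 554 to 10636 ± 287 (SD, n = 3), a log2 change of 0.37 ± 0.07 (SE, interval 0.21 to 0.53; limma adjusted p = 0.0222). With single libraries left out the change lay between 0.31 and 0.40 and the limma adjusted p between 0.0220 and 0.0822.

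Ifih1 (ENSMUSG00000026896.14, chr2:62595798-62646255, minus strand) encodes MDA5, the sensor of long double-stranded RNA. It read 13303, 13610 and 13095 with R837 alone and 16761, 17285 and 15959 with taurine. The R837 libraries lay close together and the lowest taurine library was still clearly above them. The mean went from 13336 ± 259 to 16669 ± 668 (SD, n = 3), a log2 change of 0.32 ± 0.06 (SE, interval 0.19 to 0.46; limma adjusted p = 0.0205). Without single libraries the limma adjusted p ranged from 0.0228 to 0.0850.

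Dhx58 (ENSMUSG00000017830.15, chr11:100694884-100704271, minus strand) encodes LGP2, the helicase without signalling domains. Its values were 10096, 8875 and 9642 in the R837 libraries and 11466, 12268 and 12508 in the taurine libraries. The groups did not overlap, and R837 replicate 1 and taurine replicate 1 came nearest to each other. The mean went from 9538 ± 617 to 12081 ± 546 (SD, n = 3), a log2 change of 0.34 ± 0.07 (SE, interval 0.18 to 0.51; limma adjusted p = 0.0306, 0.0325 to 0.119 without single libraries). Its exons overlap the antisense gene Dhx58os over 141 bases. Adding that gene's reads left the change at 0.34.

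Mavs (ENSMUSG00000037523.13, chr2:131234063-131248025, plus strand) encodes the mitochondrial adaptor that both signalling helicases use. It had the fewest reads of the members, with normalized counts of 537, 403 and 495 with R837 alone and 394, 453 and 375 with taurine. The groups overlapped, since taurine replicate 2 was above R837 replicate 2. The mean was 478 ± 68.2 with R837 and 407 ± 40.9 with taurine (SD, n = 3), a log2 change of -0.23 ± 0.15 (SE, limma adjusted p = 0.412). The interval of -0.57 to 0.12 leaves room for a fall of a size larger than the rise of the helicases as well as for a small rise.

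Tbk1 (ENSMUSG00000020115.3, chr10:121546455-121586787, minus strand) encodes the kinase that phosphorylates IRF3 downstream of both MAVS and STING. Its values were 4176, 3492 and 3384 in R837 replicates 1 to 3 and 4189, 4291 and 4086 with taurine. R837 replicate 1 lay within the taurine range, so the groups overlapped, and the taurine libraries were close together. The means were 3684 ± 429 and 4189 ± 103 (SD, n = 3), a log2 change of 0.19 ± 0.09 (SE, interval -0.02 to 0.40; limma adjusted p = 0.257).

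Ikbke (ENSMUSG00000042349.13, chr1:131254343-131279606, minus strand) encodes IKK epsilon, the related kinase that interferon induces. It read 1544, 1295 and 1752 with R837 alone and 1518, 1714 and 1781 with taurine. R837 replicate 3 was above 2 of the 3 taurine libraries, so the groups overlapped widely. The log2 change was 0.13 ± 0.13 (SE, interval -0.15 to 0.42; limma adjusted p = 0.569). Its exons overlap the predicted genes Gm28914 over 159 bases and Gm28913 over 65 bases, and the reads cannot be told apart there because the strand setting is not given.

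Zbp1 (ENSMUSG00000027514.14, chr2:173206612-173218923, minus strand), the Z-nucleic acid sensor, read 9692, 11476 and 11098 with R837 alone. With taurine it read 13279, 12964 and 13588, so that all taurine libraries were higher and closer together. R837 replicate 1 was the lowest of all 6. The mean went from 10756 ± 940.0 to 13277 ± 312 (SD, n = 3), a log2 change of 0.31 ± 0.08 (SE, interval 0.13 to 0.48). The limma adjusted p of 0.04997 sat just under the threshold, and it ranged from 0.0431 to 0.141 without single libraries. edgeR gave an adjusted p of 0.0508 for Zbp1, so of the 4 calls this one is the least secure.

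Eif2ak2 (ENSMUSG00000024079.4, chr17:78852564-78882573, minus strand) encodes PKR, which phosphorylates the translation factor eIF2 alpha when it binds double-stranded RNA. It read 9403, 10060 and 9812 with R837 alone and 11598, 10107 and 9503 with taurine. Only taurine replicate 1 was well above the R837 libraries, and taurine replicate 3 was below 2 of them. The means were 9758 ± 332 and 10403 ± 1078 (SD, n = 3), a log2 change of 0.09 ± 0.08 (SE, interval -0.10 to 0.28; limma adjusted p = 0.573). Without taurine replicate 1 the change was 0.00682.

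Adar (ENSMUSG00000027951.16, chr3:89715022-89753446, plus strand) encodes ADAR1, which converts adenosine to inosine in double-stranded RNA. Its values were 16341, 15284 and 20244 with R837 alone and 16300, 20777 and 20990 with taurine. R837 replicate 3 sat with the high taurine libraries and taurine replicate 1 with the low R837 libraries, so the groups overlapped. The means were 17290 ± 2612 and 19355 ± 2648 (SD, n = 3), a log2 change of 0.16 ± 0.13 (SE, interval -0.12 to 0.45; limma adjusted p = 0.478). The gene's exons overlap those of Chrnb2 on the other strand over 1365 bases, and with the reads of Chrnb2 added the change was also 0.16.

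Tmem173 (ENSMUSG00000024349.9, chr18:35733678-35740554, minus strand) encodes STING, the adaptor on which the DNA branch converges. It was the steadiest member, at 3775, 3825 and 3807 with R837 alone and 3763, 3677 and 3708 with taurine. All taurine libraries were below all R837 libraries, with R837 replicate 1 and taurine replicate 1 almost at the same value. The means were 3803 ± 25.6 and 3716 ± 43.4 (SD, n = 3), a log2 change of -0.03 ± 0.07 (SE, limma adjusted p = 0.814). The interval of -0.19 to 0.12 does not reach the fitted rise of any of the 4 called genes, the smallest of which was 0.31. Tmem173 was the 1 member with non-overlapping groups in the lower direction, where 15% of all tested genes had such groups. The other 4 members with non-overlapping groups were the called genes, all higher with taurine, against 14.6% of all tested genes.

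**Figure D2:**
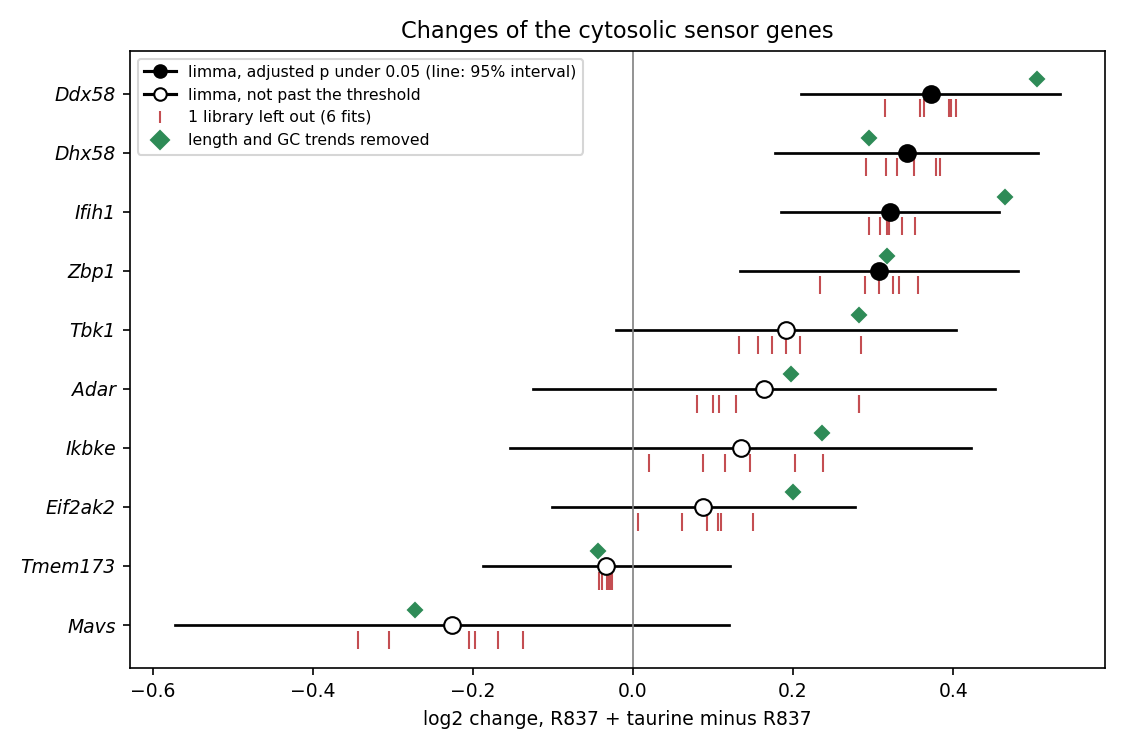
Log2 change of each sensor gene (taurine plus R837 over R837 alone) with its 95% interval from limma; filled points passed an adjusted p of 0.05, red ticks are the fits with 1 library left out and green diamonds the fit with length and GC trends removed. The 4 filled points (Ddx58, Dhx58, Ifih1 and Zbp1) lie between 0.31 and 0.37, and the intervals of the other 6 genes include 0.

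The spread within groups differed among the members. With R837 alone the coefficient of variation was 0.673% for Tmem173, 1.94% for Ifih1 and 3.40% for Eif2ak2. It was 15.1% for Adar, 15.0% for Ikbke and 14.3% for Mavs, so a change of the size seen for the helicases was harder to call in those 3 genes. With taurine the coefficient was lowest for Tmem173 (1.17%), Zbp1 (2.35%) and Tbk1 (2.45%) and highest for Adar (13.7%). The summed CPM of the members was 2169, 2171 and 2314 in R837 replicates 1 to 3. In the taurine libraries it was 2453, 2582 and 2550.4, each above the R837 libraries.

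Levels between genes were compared as normalized counts per kb of exon, using the union of annotated exons. With R837 alone the order from the highest was Zbp1 (3048 ± 266), Dhx58 (2915 ± 189), Adar (2130 ± 322), Eif2ak2 (1909 ± 64.9), Ifih1 (1633 ± 31.7), Tmem173 (1387 ± 9.34), Ddx58 (1167 ± 78.6), Tbk1 (942 ± 110), Ikbke (170 ± 25.4) and Mavs (143 ± 20.4) (SD, n = 3). The libraries of Zbp1 and Dhx58 overlapped, as did those of Adar and Eif2ak2 and those of Ikbke and Mavs, while the other neighbours in that order were apart in all 3 libraries. LGP2 transcripts, which encode the helicase that does not signal, were thus the most abundant of the helicases per kb, and the adaptor Mavs was at the bottom. With taurine Ddx58 (1509 ± 40.7) stood above Tmem173 (1356 ± 15.8) in all libraries. Ifih1 (2041 ± 81.8, from 1955 to 2117) then lay within the range of Eif2ak2 (2035 ± 211, from 1859 to 2268), so these 2 had no order. When the length of the longest transcript was used in place of the exon union, Dhx58 was above Zbp1, Ifih1 above Eif2ak2 and Ddx58 above Tmem173 with R837 alone, so the order of these pairs depends on the gene model.

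**Figure D3:**
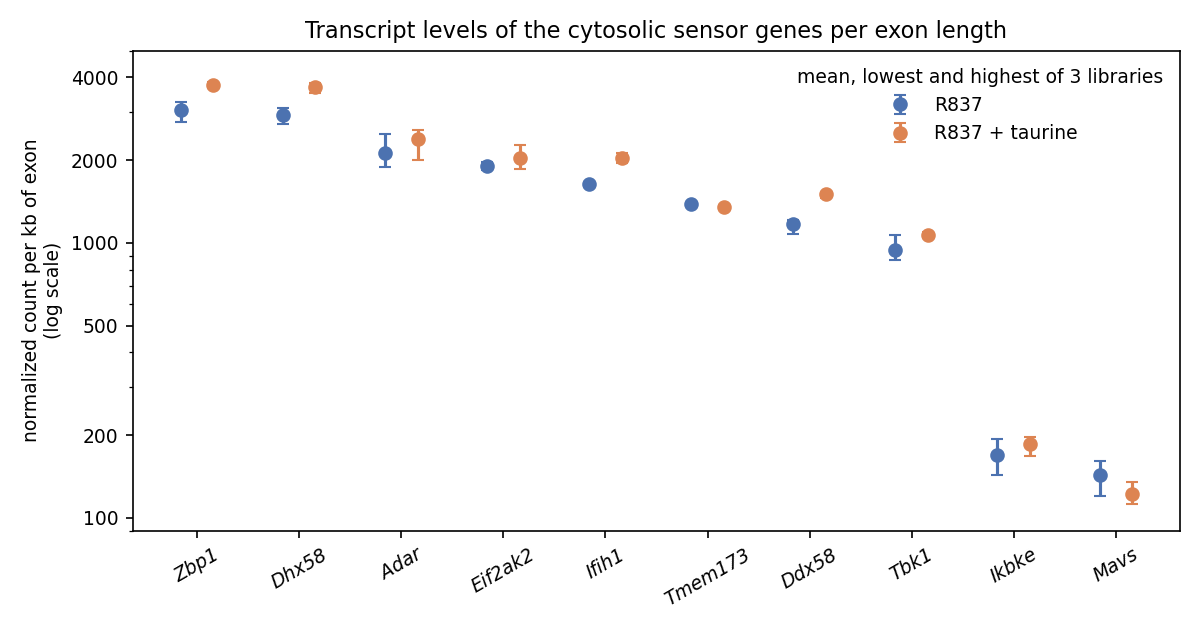
Level of each sensor gene per kb of exon (normalized count per kb, log axis) by group, ordered by the mean with R837 alone; points are group means and whiskers reach the lowest and highest library (n = 3). Zbp1 and Dhx58 are at the top (means of 3048 and 2915 with R837 alone), and Ikbke and Mavs are at the bottom (170 and 143).

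Whether members of 1 kind changed by unequal amounts was asked with ratios within each library, which do not depend on the scaling of libraries. The log2 ratio of Ifih1 to Ddx58 was 0.698 ± 0.0794 with R837 alone and 0.648 ± 0.0702 with taurine (SD, n = 3), a difference of -0.05 (exact permutation p = 0.5, two-sided). The ratio of Dhx58 to Ddx58 differed by -0.03 (exact permutation p = 0.7). With length and GC trends removed the fitted changes of the helicases stood further apart, at 0.50 for Ddx58, 0.46 for Ifih1 and 0.29 for Dhx58, and whether their rises differ is not settled by these ratios. That correction took the length of the exon union, which depends on the gene model. It is 7050 bases for Ddx58 against 3874 for the longest transcript, and 3272 against 2412 for Dhx58. No fit was run with the other length. The ratio of Ikbke to Tbk1 differed by -0.06 (exact permutation p = 0.8) and that of Adar to Eif2ak2 by 0.08 (exact permutation p = 0.9). With 3 against 3 libraries the smallest p this test can give is 0.1, so it could not have passed, and the Benjamini-Hochberg adjusted p over the 4 ratios was 0.9 for each.

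Other features of the libraries also differed between the groups. The deviations of genes from their means correlated with exon length across genes (Spearman) at 0.0443 to 0.147 in the R837 libraries and at -0.203 to -0.100 in the taurine libraries, so longer genes read lower with taurine. Genes are not independent replicates, and these values are a description. With the trends on length and GC content removed, the log2 change was 0.50 for Ddx58, 0.46 for Ifih1, 0.29 for Dhx58 and 0.32 for Zbp1, and all 4 were still called by limma (adjusted p = 0.00383, 0.00338, 0.0247 and 0.0470). Eif2ak2 then stood at 0.20 (limma adjusted p = 0.121) and Ikbke at 0.24, both more than 1.5 times their values without the correction, and neither was called.

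Markers of other cell types were read beside these results. The 8 conventional dendritic cell markers summed to a CPM of 647 to 681 with R837 alone and to 547 to 570.0 with taurine. Of these markers limma called 1 lower (12.5%), against 2.66% of all tested genes. That sum is carried by its highest genes, Itgax (mean normalized count 11165 with R837 alone, 9180 with taurine) and Sirpa (6472 and 5609). Zbtb46 (2814 and 3052) and Clec9a (2555 and 1864) came next, and Xcr1 (47.8 and 46.8) and Batf3 (157 and 232) were far lower. Clec9a was the marker called lower (log2 change -0.46, limma adjusted p = 0.0206), and 3 of the 8 markers had a change above 0. Markers named here beyond Itgax and Sirpa were looked up although the naming rule did not select them. The 8 neutrophil markers summed to 33.1 to 48.7 and to 47.0 to 57.1 (1 of 7 tested called higher by limma), led by S100a9 and Ngp. The erythroid markers Hba-a1, Hba-a2 and 6 others summed to 2.58 to 4.08 and to 4.64 to 7.37 (1 of 5 tested called higher by limma). The 8 monocyte and macrophage markers, with Cd68 and Lyz2 the highest, summed to 394 to 427 and to 419 to 501 (1 called higher by limma). T and NK cell markers (145 to 180.0 and 138 to 176, with Cd8b1 and Cd4 the highest) overlapped between the groups, and the T cell genes Cd3d and Cd3g were at 0 in every library. Marker sums like these follow their highest genes, and bulk RNA cannot show whether such reads came from the named cells or from pDCs. The part of other cells in the results on the sensors was not tested.

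The partners of the sensors were read from 7 lists of 99 other genes, of which 95 passed the filter. With taurine 13 of the 95 rose (13.7%) and 2 fell (2.11%), against 3.75% and 2.66% of all tested genes, and the median change was 0.10. Both genes that fell are regulators of the RIG-I-like receptors. Of the 13 that rose, 6 belong to the list of products of IRF3 and NF-kB signalling. Without R837 replicate 1 or 2 or taurine replicate 1, 2 or 3, between 6 and 7 of the 95 were called higher and none lower by limma. At an unadjusted limma p under 0.05, 25 to 29 were higher and 10 to 12 lower. In the same fits 2701 to 3187 of the 14922 to 14988 genes tested passed unadjusted, in either direction. Over all tested genes those fits called 0.669% to 1.52% higher and between 30 and 123 genes lower. Without R837 replicate 3 the counts of partner genes were 16 and 9, where 5.23% of all tested genes were called higher and 723 genes lower.

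Among the regulators of the RIG-I-like receptors, 1 of 15 tested genes rose and 2 fell, with a median change of 0.06. Ddx60, a helicase described as a partner of RIG-I, rose from 1277, 1352 and 1465 to 2304, 2038 and 1754 (log2 change 0.57, limma adjusted p = 0.0283). Mex3c, a ubiquitin ligase reported to modify RIG-I, fell from 1540, 1483 and 1514 to 1109, 1097 and 955 (log2 change -0.52, limma adjusted p = 0.0205). For both genes all taurine libraries lay on 1 side of all R837 libraries. Dhx15, an RNA helicase, fell as well (log2 change -0.43, limma adjusted p = 0.0246), and Rnf135, a ubiquitin ligase for RIG-I, was at 0.33 without a call. The calls of Mex3c and Dhx15 were kept only without R837 replicate 3, and that of Ddx60 was lost without R837 replicate 1 or 2 or taurine replicate 1 or 2.

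Among the adaptors and kinase scaffolds around MAVS, 2 of 21 genes rose, with a median change of 0.08. Irf7, the transcription factor that amplifies interferon genes, rose by a log2 change of 0.65 (limma adjusted p = 0.00296) and stayed called whichever single library was left out. Tbkbp1, a scaffold of TBK1, rose from 285, 313 and 312 to 422, 441 and 465 (log2 change 0.54, limma adjusted p = 0.0444), a call that was kept only without R837 replicate 3. Traf3 (-0.46) and Traf2 (0.27), ubiquitin ligases of the MAVS complex, had changes in opposite directions. limma and edgeR did not call them (limma adjusted p = 0.0543 and 0.0558), whereas DESeq2 did (adjusted p = 0.00752 and 0.0149).

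In the cGAS and STING branch 2 of 16 genes rose, with a median change of 0.13. Samhd1, which degrades deoxynucleotides and limits the nucleic acid that sensors can meet, read 44068, 43551 and 37545 with R837 alone and 51184, 50100 and 51794 with taurine (log2 change 0.29, limma adjusted p = 0.0445). Rhbdf2, the iRhom2 protein reported to support STING trafficking, rose by 0.32 (limma adjusted p = 0.0472). The groups of both genes were apart, and both calls were kept only without R837 replicate 3. Trim32 (-0.86), a ubiquitin ligase of STING, and Surf4 (0.19), a cargo receptor, were not called. The gene of cGAS itself, Mb21d1, which was looked up although the naming rule did not select it, read 504, 471 and 672 with R837 alone and 559, 554 and 624 with taurine, so its groups overlapped.

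Downstream of ZBP1, 1 of 8 genes rose. This was Mlkl, the pore-forming effector of necroptosis, at 868, 601 and 769 with R837 alone and 1285, 1088 and 1230 with taurine (log2 change 0.70, limma adjusted p = 0.0308). Its taurine libraries were all higher, and the call was lost without R837 replicate 2 or any 1 taurine library. Birc2 (-0.17), Birc3 (-0.10) and Xiap (-0.63), which encode inhibitors of apoptosis, were not called. Xiap varied widely within both groups, at 1982, 6351 and 7948 with R837 alone and 1534, 7768 and 2262 with taurine.

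The eIF2 alpha branch, to which PKR signals, had a median change of -0.17, with 1 of 12 genes called higher. limma and edgeR called 0 lower and DESeq2 called 3 lower, against 2.66%, 2.48% and 8.14% of all genes each adjusted. At an unadjusted p under 0.05 in limma, 4 were lower and 1 higher, where 23.7% of all tested genes passed in either direction. The gene called higher was Ddit3, the stress transcription factor CHOP (log2 change 0.48, limma adjusted p = 0.0410). With the reads of genes whose exons overlap it added, its change was 0.20 (limma adjusted p = 0.153). That sum holds all reads of those genes, among them Mars, which shares only 68 bases with Ddit3. It cannot show how many reads of Ddit3 are ambiguous, so the call stays uncertain. Eif2ak3 (-0.43), the kinase PERK that responds to unfolded protein, Dnajc3 (-0.30), an inhibitor of PKR and PERK, and Ppp1r15b (-0.27), which directs the phosphatase of eIF2 alpha, were below 0. They were not called by limma or edgeR and were the 3 genes that DESeq2 called lower (adjusted p = 0.0112, 0.0225 and 0.0439). Among 12 genes of RNA editing and nucleic acid disposal 0 were called by limma or edgeR. DESeq2 called 3 higher, against 8.38% of the genes it adjusted. At an unadjusted p under 0.05 in limma 7 were higher and 0 lower, against the same 23.7% of all tested genes in either direction. Of these 12 genes 11 were above 0, against 48.6% of all tested genes, and the median was 0.23. The lowest p values there were those of Rnaset2a (0.26), Rnaset2b (0.24) and Rnaseh2a (0.72). Rnaset2a and Rnaset2b are annotated copies of 1 gene whose reads may not be separable, so both are uncertain. Rnaseh2a stood at 0.31 when all reads of overlapping genes were added. Among these is Prdx2, which shares 177 bases with Rnaseh2a, so that value cannot show how many of its reads are ambiguous.

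Of the 11 tested products of IRF3 and NF-kB signalling, 6 rose, with a median change of 0.37. As background, these genes are also induced through TLR7 in pDCs. The chemokine Cxcl10 rose by 0.93, the ubiquitin-like Isg15 by 0.61, Ifit1, which binds viral RNA caps, by 0.61, and the chemokine Ccl5 by 0.52 (limma adjusted p = 0.00286, 0.0037, 0.00443 and 0.00787). These 4 stayed called whichever single library was left out, unlike the sensor genes themselves. The rest of the list was looked up although the naming rule did not select it. Ifit3 (0.52) and Ifit2 (0.31) were also called higher by limma. Tnfaip3 (-0.23), Nfkbia (0.02), Tnf (0.05), Il6 (0.37) and Ifnb1 (0.35) were not called by limma.

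**Figure D4:**
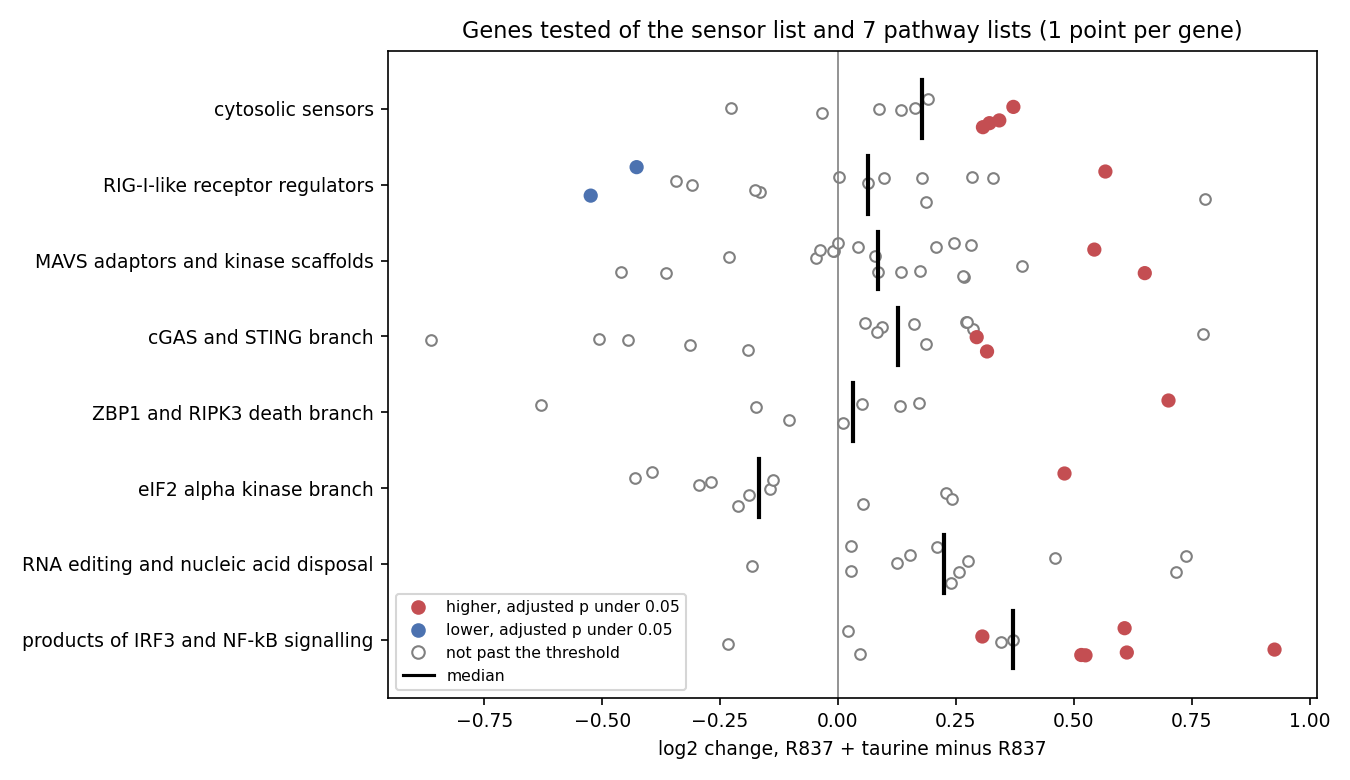
Log2 change of each tested gene of the 7 partner lists and of the sensors (taurine plus R837 over R837 alone), 1 row per list; filled points passed a limma adjusted p of 0.05 and the bar in each row is the list's median. The products of IRF3 and NF-kB signalling have the highest median (0.37), and the eIF2 alpha branch has the lowest (-0.17).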

How the data were processed

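The authors deposited 1 table per library. Per the file headers its values are normalized counts, a signal that never falls below 0. Multiplied by a library's size factor (0.942 to 1.06), 100% of values came within 0.001 of whole reads. The submitters' processing notes name HISAT2, StringTie, mm8 and mm10. It is not given in the sources used here which tool counted reads, with which strand setting, or which one normalized them. Of 52403 identifiers also in GENCODE M21, 95.2% had identical mm10 coordinates.

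The filter kept 15265 genes that reached 10 normalized counts in any 3 libraries or more. These were tested with limma 3.58.1 (R 4.3.3) on log2(normalized count + 1), with a group term, a variance prior that follows abundance, and Benjamini-Hochberg adjustment. The pseudocount of 1 understates changes of low genes. On simulated data with 200 genes changed 2-fold, 73.5% were recovered with 8 false calls among 15198 genes. The changed genes had a mean of at least 50. Changes as small as those of the called sensors were not simulated, so recovery at that size is not known. Alternatives were edgeR 4.0.16, DESeq2 1.42.0, other scalings, filters and pseudocounts, the replicate block, removal of length and GC trends, and leaving out each library. Members and lists were chosen with earlier results of these data known. Of each partner list the text names up to 4 genes with the smallest p and any called against the list, and of each cell type the 2 markers with the highest level. The markers of 1 further cell type are not reported here. Exon lengths and overlaps come from GENCODE M21, and ratio tests from scipy 1.17.1.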

Additional observations from a re-analysis of the deposited data

How the results depend on the processing

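All 10 members kept the sign of their change under every alternative run. The 4 members called higher became 2 with no filter on low values, 2 with quantile normalization, 2 with a replicate block and 0 with limma without the trend. The fit without the trend called 4 genes in all and left 4 members at an unadjusted p under 0.05. In it 3217 of 15265 genes passed unadjusted in either direction, and the unadjusted counts of partner genes below are read against that number. Without single libraries 0 to 4 were called, while limma called 130 to 1503 genes in all. Zbp1 lost its call under 7 of the 13 other alternatives, Dhx58 under 4, and Ddx58 and Ifih1 only without the trend. The 13 partner genes called higher became 6 with no filter, 8 with the replicate block, 0 without the trend (22 at an unadjusted p under 0.05) and 6 to 16 without single libraries. The 2 called lower became 7 with DESeq2, 0 without the trend (9 unadjusted) and 0 to 9 without single libraries. Libraries with the same number did not deviate together (correlations of -0.00264, -0.00681 and -0.0434). These values cannot show whether same-numbered libraries shared a mouse or culture, which the labels do not give. Without single libraries the ratio differences ranged from -0.107 to 0.0362 for Dhx58 to Ddx58, from -0.138 to 0.105 for Ikbke to Tbk1 and from -0.0499 to 0.276 for Adar to Eif2ak2, changing sign. The cause of these differences between alternatives was not tested.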

Other observations

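The interferon response core that Ifih1, Ddx58 and Eif2ak2 hold was also counted over all genes with a RefSeq promoter. It was present in 12.2% of the 401 genes called higher with taurine, in 1.63% of the 307 called lower and in 4.09% of the 10015 tested. This is a description of letters with no test. Among the partner genes, 2 that were looked up after their values were seen each had 1 library far from the rest of its group. Trim25, the ubiquitin ligase that modifies RIG-I, read 18583, 18264 and 18028 with R837 alone and 18155, 19092 and 8636 with taurine. Trex1, the DNase that removes cytosolic DNA, read 12624, 5386 and 12707 with R837 alone and 15939, 15610 and 17379 with taurine. Other partner genes were uneven within both groups. With R837 alone and with taurine the coefficient of variation was 56.9% and 88.4% for Xiap, 71.0% and 52.7% for Arl5b, and 36.4% and 35.9% for Tnfaip3.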
